A study of Mus musculus with 6 samples.

Results

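Lymphatic-type endothelial cells were examined among single cells of the mouse aortic root and ascending aorta. A cell was taken as lymphatic-type when it held no transcript of Ptprc (the pan-leukocyte antigen CD45), fewer than 5 Myh11 (smooth muscle) and fewer than 20 Dcn (fibroblast) transcripts per 10000, at least 1 transcript of the endothelial genes Pecam1, Cdh5 or Egfl7, and a transcript of at least 2 of the 5 genes Mmrn1, Prox1, Flt4, Nts and Pkhd1l1. The cells were thus chosen by the measured levels of these 11 genes, none of which is a finding below. This rule found 122 of the 24972 cells that passed the quality filter. The cells came from 6 female mice on the 129 background at 16 weeks of age, 4 control mice (Tgfbr1+/+) and 2 mice heterozygous for the Loeys-Dietz syndrome (LDS) allele Tgfbr1M318R/+. By their labels, 2 of the 4 controls also carried Wnt2CRE, a Cre driven by the Wnt2 promoter, as the labels spell it, that marks cardiac neural crest (CNC) descendants, with the conditional tracer EGFP-L10a, and the other 2 controls and both LDS mice are listed without them. Live nucleated cells (DyeCycle Violet positive, propidium iodide negative) were sorted from each mouse separately and sequenced from their 3′ ends on the 10x Genomics v3 platform. The number at the end of each cell barcode separates 6 libraries, but nothing in the sources used here pairs a library with a mouse, so LDS and control cells were not compared. Values are given per library or as sums over the cells of all libraries, with no p-value, because a library whose genotype is not known cannot stand as a replicate and cells are not replicates at all.

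Lymphatic vessels drain interstitial fluid, lipid and immune cells. Their endothelium is specified by the homeodomain factor PROX1 together with SOX18 and NR2F2, grows in response to VEGF-C and VEGF-D through the receptor VEGFR-3 (encoded by Flt4) and its coreceptor NRP2, and draws dendritic cells with the chemokine CCL21. In the aorta, lymphatic vessels run in the adventitia, and initial lymphatic capillaries, collecting vessels and lymphatic valves differ in their junctions, matrix and smooth muscle cover.

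Each cell was measured as a count of unique molecular identifiers (UMIs, 1 per captured transcript). Between 1863 and 6395 cells per library passed the filter, with a median of 5572 to 9838 UMIs per cell. The lymphatic-type cells had a median of 4248 UMIs (range, 1599 to 24627), against 3983 in the 281 other endothelial cells used for comparison, which had a transcript of at least 2 of Pecam1, Cdh5 and Egfl7 and none of the 5 genes. No barcode of a lymphatic-type cell recurred in another library, and 1 of the 122 cells fell in the highest 5% of doublet scores of its library. Intervals below are 95% exact intervals that cover counting error only.

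The label was checked on transcripts that the rule had not used. Cells with an endothelial transcript that passed the same Ptprc, Myh11 and Dcn limits (597 cells) were clustered without the genes of the rule, and 104 of the 122 lymphatic-type cells fell into 1 cluster of 105 cells, whose leading genes included Ccl21a, Reln, Gm21541, Htr2b, Lyve1, Tc2n, Pdpn, Lcn2 and Sh3gl3. This cluster is called the main group. Another 11 cells fell into a cluster of 24 cells whose leading genes included Rnase1, Enpp2, Ptgs2, Vcam1, Fst, Procr, Gap43, Ccl7 and Nt5e, and 7 were spread over 5 further clusters. Of lymphatic genes outside the rule, Lyve1 was found in 1 of those 11 cells and Ccl21a, Pdpn and Reln in none. They are therefore called the second group, with Rnase1 and Enpp2 among its leading genes. The genes of the rule were mixed in these cells, with Prox1 in 8, Pkhd1l1 in 9, Flt4 in 4 and Mmrn1 in none. The 7 scattered cells passed mostly through Flt4, which 6 of them held, and 1 of them held Mmrn1. Values for the main group stand beside the pooled value for a number of genes whose level the other 18 cells carried, but not for every such gene.

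Lymphatic-type cells made up 0.489% of all filtered cells, and the share differed widely between libraries. It was 0.0930% in library 1 (3 of 3225 cells, interval 0.0192 to 0.272%), 0.280% in library 2 (8 of 2859, interval 0.121 to 0.551%), 0.498% in library 3 (25 of 5019, interval 0.323 to 0.734%), 1.14% in library 4 (73 of 6395, interval 0.896 to 1.43%) and 0.232% in library 5 (13 of 5611, interval 0.123 to 0.396%). Library 6 held none among 1863 cells, where 3 counts of the total would be a share of 0.161% and the interval reached 0.198%. Library 4 stood above the others, its interval overlapping none of theirs, and it supplied 73 of the 122 cells. The pooled share without it was 0.264%. Library 4 was also the richest in other endothelium (128 of 281 cells). As a share of both endothelia together, the lymphatic-type cells were 33.3% in library 2, 32.9% in library 3 and 36.3% in library 4, with 21.0% in library 5, and the intervals of these libraries overlapped. In library 1 the share was 8.82% (1.86 to 23.7%), below the interval of library 4 (29.7 to 43.4%). The main group alone had 0, 8, 16, 70, 10 and 0 cells in libraries 1 to 6, and the 3 lymphatic-type cells of library 1 were all among the 7 scattered ones.

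**Figure D1:**
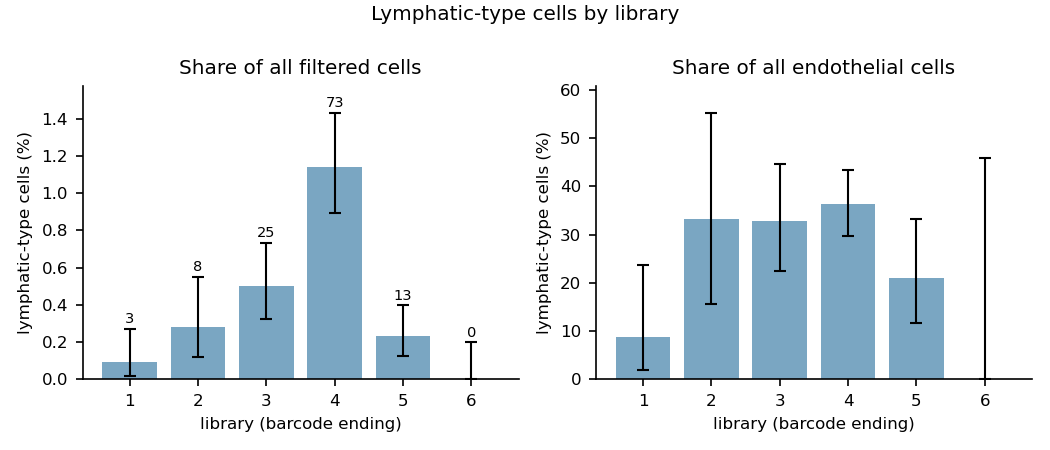
Share of lymphatic-type cells (%) among all filtered cells (left) and among lymphatic-type and other endothelial cells together (right) in each of the 6 libraries. Cells with an endothelial transcript that belong to neither class are left out on the right. Bars are shares, whiskers are 95% exact binomial intervals and the numbers on the left are cells. The 73 cells of library 4 make up 1.14% of its cells, while the right panel shows overlapping intervals between libraries 2, 3, 4 and 5.

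The 5 genes that chose the cells were themselves unevenly held, which is a description of the rule and no finding. Mmrn1 (multimerin 1, an extracellular matrix glycoprotein) was found in 101 of the 104 main-group cells, Flt4 in 89, Nts (neurotensin) in 75, Prox1 in 63 and Pkhd1l1 in 62. In the second group, Nts was found in 8 of 11 cells, Prox1 in 8 and Pkhd1l1 in 9. By the number of genes held, 28 cells had 2, 29 had 3, 35 had 4 and 30 had all 5, and cells with all 5 were the deepest (median 6425.5 UMIs, against 3581 to 3855 for the rest). The share in the main group went from 15 of 28 cells with 2 genes to 26 of 29 with 3, 33 of 35 with 4 and 30 of 30 with 5. Lyve1, a hyaluronan receptor outside the rule, was found in 46.4% of cells with 2 genes and 80% of those with 5, and Maf, a transcription factor, in 46.4% and 100%. The 58 endothelial-gated cells just outside the rule, with 1 of the 5 genes, were unlike those just inside it: 1 of them fell in the main group, 3.45% held Lyve1 and 1.72% held Ccl21a.

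The lymphatic-type cells were first set against other endothelium. Each gene was expressed as its pooled UMIs in a class per 1000000 UMIs of that class (CPM), and genes with a mean of at least 20 CPM over the 2 classes were tested (6347 genes). At least 2-fold higher were 562 genes (8.85% of those tested), 464 of them (7.31%) also higher within each of libraries 3, 4 and 5, the libraries with at least 10 lymphatic-type cells. At least 2-fold lower were 504 genes (7.94%), 433 of them (6.82%) also lower within each of these libraries. The median log2 ratio over all tested genes was 0.07. The counts of higher and lower genes in each list below are to be read beside these shares of 8.85% and 7.94%.

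The 12 largest ratios were led by known products of lymphatic endothelium. Ccl21a (ENSMUSG00000094686, chr4:42772860-42773993, minus strand, mm10), the chemokine that guides CCR7-bearing dendritic cells and T cells into lymphatics, gave 20707 UMIs in the lymphatic-type cells and 15 in other endothelium (32889 against 10.7 CPM; log2 ratio 11.54, interval 10.86 to 12.42). It stood at 0 CPM in library 1, 55772 in library 2, 31488 in library 3, 41636 in library 4 and 7789 in library 5. Library 5 was thus several times lower than libraries 2 to 4, and the 3 scattered cells of library 1 had none. Ccl21a was found in 75.4% of the lymphatic-type cells, against 4.98% of other endothelial cells and 5.65% of leukocyte-gated cells (those with a Ptprc transcript; median 5067.5 UMIs), and shares at the level of the last class are read as background. After thinning each cell to 3000 UMIs, the shares were 64.8%, 2.16% and 3.05%. Near-identical copies of the gene share reads: Gm21541 (ENSMUSG00000094065, chr4:41903610-41904743) had 150 UMIs in 49 lymphatic-type cells and none in other endothelium (at least 111-fold higher), Gm13304 had 8 UMIs, and how reads divide among these copies is uncertain.

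Lyve1 (ENSMUSG00000030787, chr7:110850607-110863239) gave 791 UMIs against 1 (1256 CPM against 0.714, log2 ratio 10.20, interval 8.30 to 16.09). Its level was 1686 CPM in library 2, 665 in library 3, 1816 in library 4 and 530 in library 5, and it was 0 in library 1. Lyve1 is also a marker of tissue-resident macrophages, and 13.0% of leukocyte-gated cells held it against 67.2% of lymphatic-type cells. Pdpn (ENSMUSG00000028583, chr4:143267431-143299564), the membrane mucin podoplanin that binds CLEC-2 on platelets, was found in 75 lymphatic-type cells (240 UMIs, 381 CPM) and in no other endothelial cell, a level at least 178-fold higher. All 75 cells belonged to the main group. Pdpn was found in 19.9% of fibroblast-gated cells too, so outside endothelium it did not mark this class.

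Reln (ENSMUSG00000042453, chr5:21884454-22344702), the secreted glycoprotein reelin, gave 162 UMIs in 50 cells and none in other endothelium (at least 120-fold higher). It varied strongly, at 296 CPM in library 2, 178 in library 3, 388 in library 4 and 18.6 in library 5. Htr2b (ENSMUSG00000026228, chr1:86099026-86111970), a serotonin receptor, was found in 42 cells (75 UMIs, at least 55.6-fold higher) and was present in all 4 libraries at 237, 171, 107 and 65.1 CPM.

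Most other genes among the 12 are less often named for lymphatics. Slc45a3, a solute carrier, was found in 69 cells (127 UMIs, at least 94.2-fold higher), Sh3gl3, an endophilin, in 47 (80 UMIs, at least 59.3-fold), Dtx1, a Notch-pathway ubiquitin ligase, in 42 (71 UMIs, at least 52.6-fold) and Rgs7bp, a binding protein of RGS regulators, in 42 (57 UMIs, at least 42.3-fold). Pard6g, of the cell polarity complex, is in the lymphatic identity list given below. It had 317 UMIs in 100 cells and 3 in other endothelium (log2 ratio 7.66, interval 6.32 to 10.16). All 12 of these largest-ratio genes were at 0 in the lymphatic-type cells of library 1. Igfbp5, an insulin-like growth factor binding protein chosen after its values were seen, gave 3535 UMIs against 53 (log2 ratio 7.20).

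**Figure D2:**
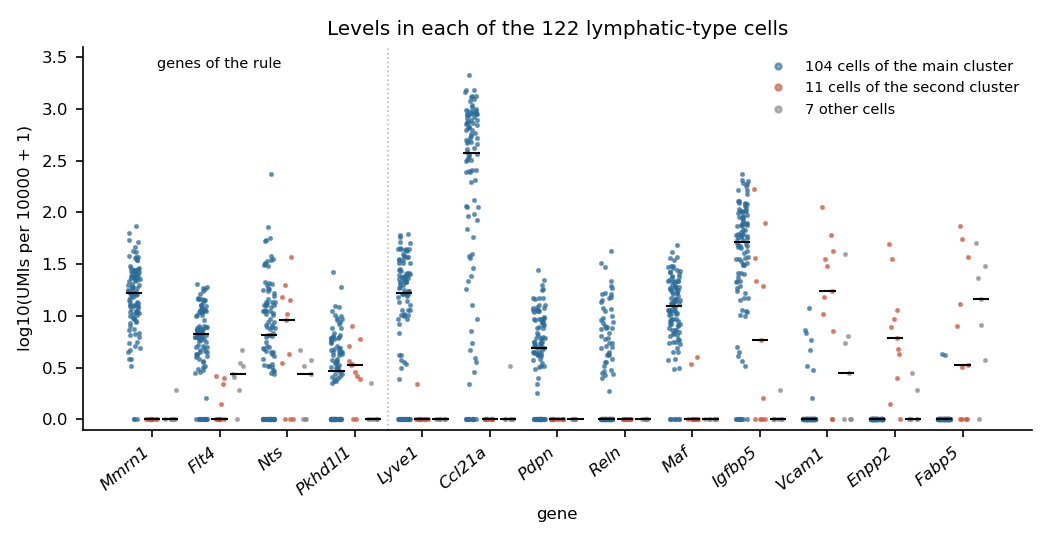
Level of 13 genes in each of the 122 lymphatic-type cells, as log10 of UMIs per 10000 plus 1. Points are cells of the main group (104), the second group (11) and the 7 scattered cells, bars are medians, and the 4 genes left of the dotted line belong to the rule. Ccl21a, Pdpn and Reln lie at 0 in every cell of the second group, whose cells reach the highest Vcam1, Enpp2 and Fabp5 levels.

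Promoter sequences are shown for 3 of these genes, Ccl21a as the gene with the largest ratio and Pdpn and Htr2b because both hold the nuclear receptor motif AGGTCA, the kind of site bound by NR2F2, whose transcript was higher in these cells. Each is the 250 bases before the RefSeq start (GRCm38.p6, the assembly of mm10), written 5′ to 3′ on the strand of the gene, with AGGTCA in capitals. They lie at chr4:42773992-42774241 for Ccl21a, chr4:143299565-143299814 for Pdpn and chr1:86111981-86112230 for Htr2b, all on the minus strand.
Ccl21a: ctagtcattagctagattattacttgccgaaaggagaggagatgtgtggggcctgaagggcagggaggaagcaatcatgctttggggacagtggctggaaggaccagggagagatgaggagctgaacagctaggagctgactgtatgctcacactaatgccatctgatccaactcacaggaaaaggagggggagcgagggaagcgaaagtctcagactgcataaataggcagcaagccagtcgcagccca
Pdpn: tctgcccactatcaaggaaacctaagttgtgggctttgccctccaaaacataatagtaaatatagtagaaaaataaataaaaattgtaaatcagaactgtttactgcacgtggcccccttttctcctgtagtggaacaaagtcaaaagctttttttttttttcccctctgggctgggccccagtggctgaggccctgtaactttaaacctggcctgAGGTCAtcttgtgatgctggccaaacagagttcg
Htr2b: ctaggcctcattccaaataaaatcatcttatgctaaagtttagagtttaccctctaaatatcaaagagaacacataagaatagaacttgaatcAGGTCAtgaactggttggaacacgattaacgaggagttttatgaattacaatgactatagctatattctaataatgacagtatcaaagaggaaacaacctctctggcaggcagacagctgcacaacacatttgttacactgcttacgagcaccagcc

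This motif begins 34 bases before the start of Pdpn and 157 bases before that of Htr2b, and the Ccl21a window holds none of the 3 motifs searched on both strands. These were AGGTCA (reverse TGACCT), the SOX motif AACAAT (reverse ATTGTT) and the MAF motif TGCTGA (reverse TCAGCA), which do not overlap one another. Of the 12 genes, 8 had a promoter in the table (9 promoters), and AGGTCA was in those of Htr2b, Pdpn and Slc45a3, AACAAT in that of Sh3gl3 and TGCTGA in none. Over all 32851 promoters of this length, 14.0% held AGGTCA, 9.42% AACAAT and 16.1% TGCTGA. The GC content of the printed windows was 52.8% for Ccl21a, 43.2% for Pdpn and 37.6% for Htr2b. A match says only that the letters are there.

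Of 32 genes known for lymphatic identity, 27 were tested, 24 were at least 2-fold higher than in other endothelium, and all 24 were on the higher side, at any size, within each of libraries 3, 4 and 5, with a list median of 4.04 on the log2 scale against 0.07 over all genes. The list median was 2.43 in library 3, 4.05 in library 4 and 2.70 in library 5. The list is not independent of the rule, since its genes are known to go with Prox1 and Flt4. It was also chosen with earlier results of these data known, so its counts are a description and no independent support for the label.

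Among its transcription factors, Maf gave 622 UMIs (988 CPM against 10.0, log2 ratio 6.58, interval 5.87 to 7.51). Its level was 917 CPM in library 2, 745 in library 3, 1337 in library 4 and 503 in library 5, and 97 of the 104 main-group cells held it. Nr2f2, the partner of PROX1 that keeps vein and lymphatic identity, was found in 105 cells, with 990 CPM against 85.7 (log2 ratio 3.52). Its levels were 887, 731, 1362 and 465 CPM in libraries 2 to 5, above the pooled level of other endothelium in each. Tbx1 was higher by 4.04 on the log2 scale, with a level between 112 and 177 CPM in these libraries.

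Foxc2, a factor of lymphatic valves, was higher by 1.32 (33 UMIs). It was held by 15 of the 104 main-group cells and 7 of the 11 second-group cells. Gata2, another factor of lymphatic valves, was at the lower limit (42.9 CPM against 86.4, or 2.01-fold lower) and was the 1 gene of the list called lower. Sox18, the inducer of Prox1 in the embryo, stood at 189 CPM against 233 (log2 ratio -0.30) and Foxc1 at 108 against 62.1 (0.79), and neither reached 2-fold.

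The remaining members were surface, matrix and secreted proteins. Fgl2, a secreted fibrinogen-like protein, was found in 95 cells (974 CPM against 25.7, log2 ratio 5.22) and Abi3bp, a matrix-binding protein, in 80 (5.80). Thy1, a surface glycoprotein, was found in 83 cells (295 CPM against 7.85; 5.17) and Mrc1, the mannose receptor, in 22 (35 UMIs against 1; 5.71, interval 3.71 to 11.63). The log2 ratio was 6.68 for the guidance factor Sema3a (interval 5.11 to 10.06), 4.53 for Sema3d, 4.55 for Fxyd6 and 3.20 for Cp. Itga9, an integrin subunit needed for lymphatic valve leaflets, was higher by 2.80, the scavenger receptor Stab1 by 2.25 and the tetraspanin Tspan18 by 2.17. Rassf9 (1.18) and Lrg1 (1.17) lay nearer the limit, and Lrg1 was at 363 CPM against 349 in library 5. Cldn11 gave 25 UMIs against none (at least 18.5-fold higher) below the level for testing, Foxp2 gave 19 UMIs, and Hoxd3, Marco and Kcnip3 were at 0.

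**Figure D3:**
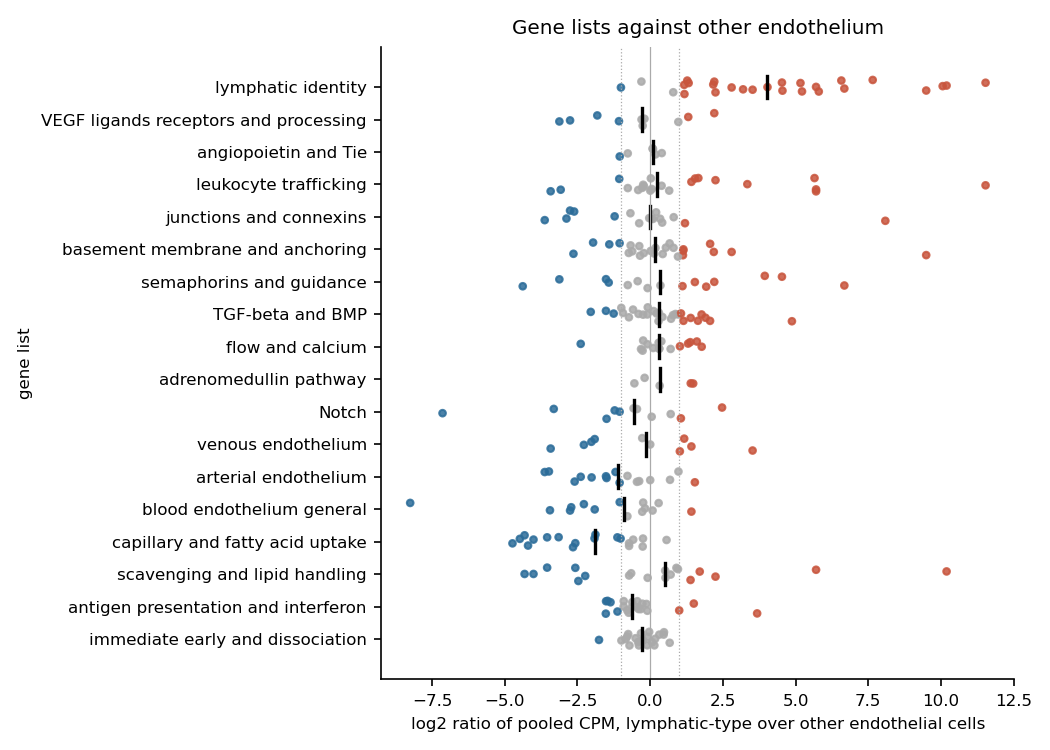
Log2 ratio of pooled CPM in lymphatic-type over other endothelial cells for the tested genes of 18 lists. Each point is a gene, red and blue mark genes at least 2-fold higher or lower, the dotted lines mark 2-fold and the black bars are list medians. The lymphatic identity list has a median of 4.04, and the capillary and fatty acid uptake list, at -1.91, lies lowest. Genes at 0 in one class are drawn at a ratio that depends on the added prior.

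The VEGF receptors were split. Of 10 tested genes of the VEGF pathway, 2 were higher and 4 lower. Nrp2, the coreceptor for VEGF-C, was found in 101 cells at 584 CPM against 126 (log2 ratio 2.21, interval 1.95 to 2.48), with 532 CPM in library 2, 422 in library 3, 813 in library 4 and 251 in library 5. Nrp1, the coreceptor for VEGF-A in blood vessels, was lower (84.2 against 735 CPM; log2 ratio -3.12), and these few UMIs were carried by the cells outside the main group. In the main group Nrp1 stood at 2.14 CPM, while the 3 cells of library 1 reached 1185.

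Flt1, the VEGF-A trap VEGFR-1, showed the same pattern, at 81.0 CPM against 548 (log2 ratio -2.75) and 6.41 in the main group. Kdr, which encodes VEGFR-2, did not differ by 2-fold (324 CPM against 387, log2 ratio -0.26). The ligands Vegfc (-1.82) and Vegfa (-1.07) were lower, and Vegfb (1.31) was higher. Pgf (0.97) and the proprotein convertases Pcsk7 and Furin stayed within 2-fold. Vegfd gave 2 UMIs and Pcsk5 3, and Ccbe1, Adamts3 and Adamts14, whose products activate VEGF-C, were at 0 in the lymphatic-type cells.

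The angiopoietin receptors did not differ by 2-fold between the endothelia. Tie1 stood at 345 CPM against 322 (log2 ratio 0.10, interval -0.14 to 0.33) and Tek, which encodes TIE2, at 227 against 214 (0.08, interval -0.21 to 0.38). Ptprb, the phosphatase that acts on TIE2, was lower (213 against 440 CPM; -1.05), the 1 called gene of 6 tested in this list. Angpt2 (-0.77), Foxo1 (0.18) and Foxo3 (0.40) stayed within 2-fold.

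Most ligands of these receptors were higher in other cells. Vegfd stood at 76.9 CPM in fibroblast-gated cells, between 56.7 and 98.8 in the 6 libraries, against 2.85 in smooth muscle-gated and 3.18 in lymphatic-type cells. Vegfc was highest in other endothelium (79.3 CPM), then fibroblasts (45.4), with 22.2 in lymphatic-type cells. Ccbe1, needed for VEGF-C processing, was at 17.3 CPM in fibroblasts and under 1 CPM in the other classes. Angpt1, the agonist of TIE2, was at 26.3 CPM in fibroblasts and 1.59 in lymphatic-type cells, and Svep1, a matrix ligand of TIE1, at 64.0 and 1.59. Adm, which encodes adrenomedullin, was more even, at 92.1 CPM in lymphatic-type cells, 134 in other endothelium, 129 in fibroblasts and 66.6 in smooth muscle.

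**Figure D4:**
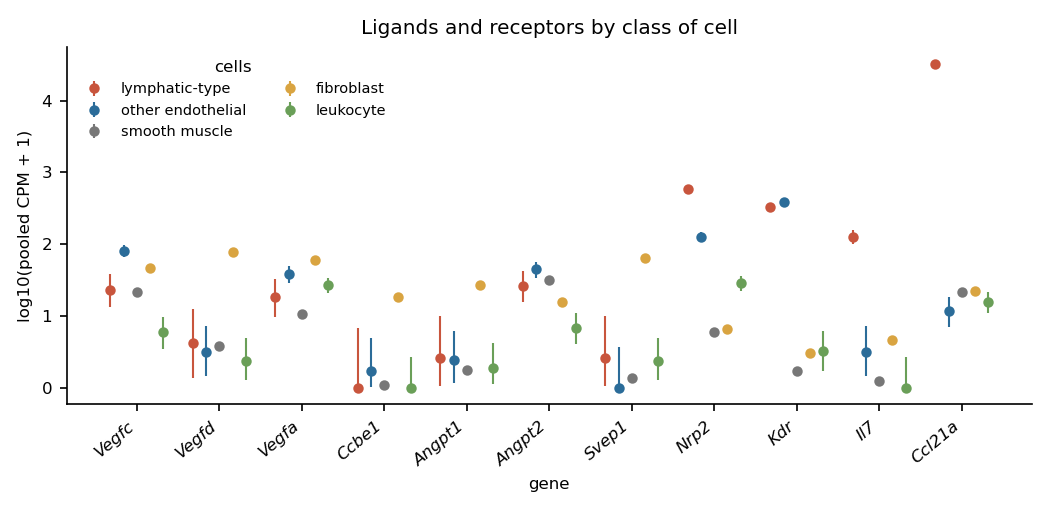
Pooled level, as log10 of CPM plus 1, of ligands and receptors in 5 classes of cells. Points are sums over all cells of a class and lines are 95% exact Poisson intervals, which are narrower than the point where not seen. Vegfd (76.9 CPM), Ccbe1 (17.3), Angpt1 (26.3) and Svep1 (64.0) are highest in fibroblast-gated cells, and Nrp2, Il7 and Ccl21a in lymphatic-type cells.

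Genes of leukocyte trafficking were higher in 9 and lower in 3 of 22 tested. Il7, the cytokine that sustains lymphocytes and lymphatic drainage, gave 79 UMIs in 45 cells against 3 (125 CPM against 2.14, log2 ratio 5.65, interval 4.27 to 8.18), and stood at 0.246 CPM in smooth muscle and 3.68 in fibroblasts. It was at 355 CPM in library 2, 112 in library 3, 158 in library 4 and 0 in library 5. The decoy chemokine receptor Ackr2 was higher by 5.71 (35 UMIs against 1; interval 3.71 to 11.63), the alarmin Il33 by 3.34 and the CXCL12 scavenger Ackr3 by 1.55. Cxcl12 was lower (291 against 2453 CPM; -3.08), at 32.0 CPM in the main group. Ackr1, the chemokine transporter of venules, was lower by a log2 ratio of -3.42 and Cd274 by -1.06.

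Vcam1 and Ccl2 were carried by the second group. Vcam1, the leukocyte adhesion molecule, stood at 816 CPM against 305 over all lymphatic-type cells (log2 ratio 1.42), but 457 of its 514 UMIs came from the 11 second-group cells and the main group stood at 34.2 CPM, below other endothelium. Ccl2, a monocyte chemokine, had 199 of its 256 UMIs there, and the main group was at 122 CPM against 129 in other endothelium. Icam1 (0.00), Icam2 (0.03), the sphingosine-1-phosphate receptor S1pr1 (-0.41) and the exporter Spns2 (0.39) stayed within 2-fold on the log2 scale. S1pr1 was at 311 CPM and Spns2 at 133 CPM in the lymphatic-type cells.

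More junction genes were lower than higher. Of 16 tested, 2 were higher, among them Jup, which encodes plakoglobin (1.20), and 5 lower. Esam, an endothelial adhesion molecule of tight junctions, was at 145 CPM against 886 (log2 ratio -2.61), Jam2 at 44.5 against 329 (-2.88) and Jam3 at 14.3 against 98.5 (-2.75). Gja5, the arterial connexin 40, was found in 1 lymphatic-type cell with 3 UMIs (-3.63, interval -6.03 to -2.13). Claudin 5 (Cldn5) and connexin 43 (Gja1) did not differ by 2-fold, with log2 ratios of 0.41 and 0.10, although Cldn5 was at 500 CPM in the main group and 18.9 in the second group.

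Matrix genes went in both directions, with 7 higher and 4 lower of 25 tested (median 0.18). Higher were Reln, Itga9, Col18a1 (log2 ratio 2.19), Emilin1 (2.06), Nid2 (1.14), Itgb4 (1.14) and Lama4 (1.13). Emilin1 encodes an elastic-fibre glycoprotein that binds integrin α9 and anchors lymphatic capillaries, and it was at 118 CPM against 27.8. Col18a1, the source of endostatin, was at 83.3 CPM in the main group and 435 in the second. Lower were Col15a1 (-2.64), Sparc (-1.96), Itga1 (-1.40) and Lama5 (-1.05), and Sparc stood at 184 CPM in the main group against 2686 in other endothelium.

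Guidance genes included 7 higher and 4 lower of 15 tested. Besides Sema3a, Sema3d and Nrp2, the secreted factor Ntn1 was at 422 CPM against 27.1 (log2 ratio 3.94, interval 3.47 to 4.49), and Sema3f (1.93), Unc5b (1.54) and Ntn4 (1.11) were higher. Sema7a (3 UMIs against 149; -4.38, interval -6.77 to -2.91), Nrp1, Sema3g (-1.52) and the receptor Plxnd1 (-1.42) were lower. Sema3a and Sema3f encode ligands of neuropilins and Ntn1 a ligand of UNC5B.

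In the TGF-β and BMP pathway, to which the mutated gene of the study belongs, 8 of 28 tested genes were higher and 3 lower. Over all tested genes, 8.85% were higher and 7.94% lower, so the lower calls lay near the share over all genes. Tgfbr2, the type II receptor, was at 284 CPM against 67.8 (log2 ratio 2.06, interval 1.70 to 2.44), with 414 CPM in library 2, 217 in library 3, 309 in library 4 and 298 in library 5. The TGF-β-induced matrix protein Tgfbi was higher by 4.88 (46 UMIs against 3; interval 3.45 to 7.42). Also higher were Ltbp1 (1.90), Bmp2 (1.77), Tgfb3 (1.64), Smad5 (1.39), the latent TGF-β binding protein Ltbp4 (1.15) and Smad1 (1.06). Ltbp1 turned to -0.61 against a broader other endothelium of 475 cells, which needed only 1 of Pecam1, Cdh5 and Egfl7 and could hold 1 of the 5 genes.

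The inhibitory SMAD genes of the pathway were lower, Smad7 by a log2 ratio of -2.04 and Smad6 by -1.25, as was the BMP target Id1 (-1.52). Tgfbr1 itself was too low to be tested, with 12 UMIs against 22, and was found in 8.20% of lymphatic-type cells and 7.83% of other endothelial cells. It was found in 40.2% of smooth muscle-gated and 23.7% of fibroblast-gated cells, whose depth was greater (medians of 7229 and 6113.5 UMIs). After thinning to 3000 UMIs, these shares were 4.55%, 6.49%, 19.2% and 12.4%. Gata4 was found in 2 of 122 lymphatic-type cells, both in the second group, and in 10.9% of smooth muscle-gated cells.

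Of 11 Notch genes, 2 were higher and 5 lower. Notch2 was higher by a log2 ratio of 2.47 (31 UMIs against 12) and its target Hes1 by 1.06. The ligand Jag2 was at 4 UMIs against 93 (-3.31), and Notch4 (-1.22), Dll4 (-1.05) and the target Hey1 (-1.50) were lower. Notch3 was at 0 UMIs against 70 (at least 10.5-fold lower). It is a leading gene of a cluster, described below, that held 15 of the other endothelial cells. The part of those cells in this ratio was not tested.

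In the flow and calcium list, 5 of 16 genes were higher and 1 lower, the latter near the share over all tested genes (7.94%). Thrombomodulin (Thbd) was at 912 CPM against 266 (log2 ratio 1.77), the endothelin-converting enzyme Ece1 at 999 against 384 (1.38), and its substrate Edn1 at 57.2 against 301 (-2.39). Nfatc1, a calcineurin target of lymphatic valves, was higher by 1.61 (47 UMIs). The adrenomedullin receptor was higher in part: Calcrl was at 694 CPM against 248 (1.48) and its partner Ramp3 at 68.3 against 25.7 (1.40), while Ramp2 was at 1304 against 1038 (0.33). Calcrl was found in 104 of 122 cells.

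Transcripts of blood endothelium were mostly lower. Of 19 genes of capillaries and fatty acid uptake, 13 were lower and none higher at 2-fold (median -1.91). Cd36, the fatty acid translocase, was at 164 CPM against 2643 (log2 ratio -4.01), and 59 of its 103 UMIs came from the 3 cells of library 1. In the main group, 1 of 104 cells held Cd36, at 2.14 CPM for the group, against 87.9% of other endothelial cells. Fabp4, the fatty acid chaperone, was at 1922 CPM against 22393 (-3.54) and at 401 in the main group. Aqp7 (-4.73), Car4 (-4.48), Scarb1 (-4.32), Rgcc (-4.20) and Gpihbp1 (-2.65) were lower too, and the first 3 were at 0 in the main group.

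Of 19 genes of scavenging and lipid handling, 5 were higher and 6 lower, with the lysosomal tetraspanin Cd63 (1.71) and the cholesterol exporter Abca1 (1.39) higher and Lpl (-2.57), Apoe (-2.47) and Pltp (-2.23) lower.

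The other lists of blood vessel beds gave fewer calls. Among 16 arterial genes, 9 were lower and 1 higher (median -1.12), with Mecom at -3.48 and Sox17 at -2.60. Among 14 general blood endothelial genes, 7 were lower and 1 higher (median -0.91), including Ly6c1 (-3.45), Ly6a (-2.71), Vwf (-2.28) and Plvap (-1.91). The 1 gene called higher was Vcam1. Venous genes were split 4 to 4, with Nr2f2, Vcam1, Lrg1 and Ephb4 (1.02) higher and Ackr1, Vwf, Tmem252 (-2.02) and Plvap lower.

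The 8 smallest ratios were led by genes at 0 in the lymphatic-type cells. Esm1, a proteoglycan of sprouting blood vessels, gave 0 UMIs against 152 (at least 22.8-fold lower), Ndufa4l2 0 against 113 (at least 16.9-fold) and Cxcl9 0 against 77 (at least 11.5-fold). Rgs5 gave 14 UMIs against 2409 (log2 ratio -6.25), Car3 1 against 179 (-6.04, interval -11.64 to -3.83) and Sfrp1 1 against 120 (-5.47, interval -11.07 to -3.25). Gm12002 gave 1 UMI against 114 and AU021092 1 against 89. The comparison class was mixed: 15 of its 281 cells lay in a cluster led by Vtn, Ifitm1, Colec11, Rgs4, Steap4, Ccl11, Notch3, Kcne4, Rgs5 and Cox4i2, and 35 in one led by Ucp1. It also held the red cell and platelet list at 3113 CPM, against 28.6 in the lymphatic-type cells.

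Transcripts of other cell types were low in the lymphatic-type cells as a whole, but not evenly among them. The macrophage list of 8 genes gave 5 UMIs, with 5 genes at 0, the lymphocyte list of 6 genes gave none, the mesothelial list of 7 gave 3 and the glial list of 6 gave 1. The smooth muscle list summed to 632 CPM in lymphatic-type cells, between 549 and 810 in libraries 3 to 5, against 1034 in other endothelium and 65489 in smooth muscle-gated cells. The fibroblast list summed to 454 CPM, between 251 and 618, against 381 and, in fibroblast-gated cells, 18584. It was at 167 CPM in the main group and 444 in the second, so the 7 scattered cells lay above the pooled value. The cardiomyocyte list was likewise at 82.6 CPM pooled, 6.41 in the main group and 28.3 in the second. Of the scattered cells, 1 fell in a cluster led by Cxcl5, Hhip, Prss12 and Chad that held 0 other endothelial cells. The part of these transcripts in the values above was not tested.

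In the list of antigen presentation and interferon genes, 3 of 21 were higher and 5 lower (median -0.61). Irf1 (-1.52), H2-Q4 (-1.52), Tap1 (-1.46), Psmb8 (-1.36) and Bst2 (-1.12) were lower, and H2-T23 (1.00), Cd74 (1.50) and H2-Ab1 (3.68) higher. Cd74 had 67 of its 73 UMIs in 3 cells and differed in direction between libraries, and H2-Ab1 had 41 of its 43 UMIs in 1 cell of library 4. Against the broader other endothelium of 475 cells, the log2 ratio of Cd74 turned to -1.04 and that of Serping1, given next, to -0.42. Among complement genes, 4 of 9 were higher and 1 lower, with C3 (2.76), the decay-accelerating factor Cd55 (2.76) and the C1 inhibitor Serping1 (1.98) higher and Cfd (-4.42) lower. Of 22 immediate early and dissociation genes, none was 2-fold higher and Hspb1 (-1.76) was lower (median -0.27). Cebpb, a transcription factor that the study followed in the aortic root, was at 839 CPM against 323 (log2 ratio 1.37), and Cebpd did not differ by 2-fold (-0.08).

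The second group held 9 cells of library 3 and 2 of library 5, with a median of 6696 UMIs against 3813. Vcam1 gave 457 UMIs in 9 of these 11 cells against 16 UMIs in 8 of the 104 main-group cells. It was uneven, at 112 and 59.7 UMIs per 10000 in the 2 cells of library 5 and at most 41.3 in the others. Of the 514 Vcam1 UMIs over all lymphatic-type cells, 354 came from library 5. Enpp2, which encodes autotaxin, gave 82 UMIs in 10 cells against 0, the activin inhibitor Fst 75 in 7 cells against 0 and the activin subunit Inhba 27 in 5 cells against 0. The fatty acid binding protein Fabp5 gave 284 UMIs in 7 cells against 2 and was uneven, at 73.5, 54.2 and 35.7 UMIs per 10000 in 3 cells, at most 11.9 in the other 4 and 0 in the rest. Ptgs2, which encodes cyclooxygenase-2, gave 23 UMIs against 0, and the selectins Selp and Sele, which tether leukocytes, gave 30 against 0 and 64 against 3. These genes were split by library. Over all lymphatic-type cells, 75 of 75 Fst and 80 of 85 Enpp2 UMIs came from library 3. By contrast, library 5 gave 21 of 28 Inhba, 19 of 23 Ptgs2, 59 of 64 Selp and 49 of 67 Sele UMIs. Several of these genes were also held by other endothelium, where 79.7% of cells held Fabp5. In pooled CPM, Fabp5 stood at 2683 in the second group and 944 in other endothelium, Sele at 605 and 126, and Selp at 283 and 123. Enpp2 stood at 775 and 29.3, Fst at 709 and 2.86, Inhba at 255 and 2.14, and Ptgs2 at 217 and 0.

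Hand2, a cardiac transcription factor, was found in 8 of the 11 cells and in none of the 104, and Cdh11 gave 37 UMIs against 3, Cytl1 86 against 15, Procr 186 against 50, Clu 284 against 97 and Postn 98 against 40. In pooled CPM, Hand2 stood at 198 in the 11 cells, 12.1 in other endothelium, 117 in smooth muscle and 75.1 in fibroblasts. Cytl1 stood at 812 in the 11 cells and 943 in other endothelium, Procr at 1757 and 154, and Cdh11 at 350 and 4.28. Among all lymphatic-type cells, library 3 held 20 of 22 Hand2 and 181 of 244 Procr UMIs. Library 5 held 29 of 40 Cdh11 and 102 of 147 Cytl1 UMIs. Over all lymphatic-type cells, 3 of 5 tested genes of the valve and endocardial list were 2-fold higher (Cdh11 at 3.78, Nfatc1 at 1.61 and Gata6 at 1.14) and 2 lower (Cytl1 at -2.01 and Plvap), and the list median of 1.14, which is that of Gata6, became -0.18 in the main group alone. Gata6 was also at -0.44 against the broader other endothelium. At 0 in the 11 cells were Ccl21a, Mmrn1, Fgl2, Abi3bp, Pdpn, Reln, Gpihbp1, Il7 and Htr2b, and Maf gave 8 UMIs. The groups come from clusters of the same cells, so these counts are a description with no test.

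Within the main group, Ccl21a itself was spread over a wide range. Its level per cell had quartiles of 33.3, 374 and 796 UMIs per 10000 and a maximum of 2152, and 13 of 104 cells held none. A limit of 100 per 10000, set after the values were seen, put 70 cells above it and 34 below, and 10 cells lay within 2-fold of it. Above the limit were 6 of 8 cells in library 2, 11 of 16 in library 3, 50 of 70 in library 4 and 3 of 10 in library 5. Depth was alike on both sides, with medians of 3667 and 3910 UMIs. Ccl21a made up 6.66% of all UMIs in the rich cells and 0.156% in the poor ones.

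Ccl21a-rich cells held more of several other transcripts. Reln gave 158 UMIs in the rich cells and 4 in the poor ones (515 CPM against 24.8, log2 ratio 4.21, interval 2.99 to 6.27), and 47 of 70 rich cells held it against 3 of 34. Tspan18 gave 80 against 4 UMIs, Gpihbp1 79 against 5, the receptor Adgrg3 76 against 5 and the potassium channel Kcnn3 57 against 5. Nrp2 was higher in the rich cells by 1.50 on the log2 scale (297 against 55 UMIs), Il7 by 1.14 and Maf by 1.12. For Il7 this held in library 4 (196 against 107 CPM), while library 3 was nearly even (222 against 216) and library 5 held 0 on both sides.

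Lyve1 was higher in the rich cells by 1.28, with 99 UMIs against 1 in library 3, 462 against 114 in library 4 and 32 against 25 in library 5. Nts, a gene of the rule and so no finding, gave 336 UMIs in the poor cells and 255 in the rich ones, and 174 of the 336 came from library 5. Ackr3 (log2 ratio of rich over poor -1.46), Clu (-2.19), the G-protein regulator Rgs16 (-1.90) and the stress-response gene Ier3 (-1.66) were higher in the poor cells. In library 3, Ackr3 was nearly even, at 202 CPM in the rich and 216 in the poor cells. Clu was nearly even in library 5, at 386 CPM in the rich and 400 in the poor cells. Cxcl1 (-3.19) was also higher in the poor cells, with 116 of 153 UMIs from the poor cells of library 5. In library 3, Cxcl1 went the other way, with 10 UMIs in the rich and 1 in the poor cells. This split rests on the same cells and on unequal libraries, and is given without a test.

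**Figure D5:**
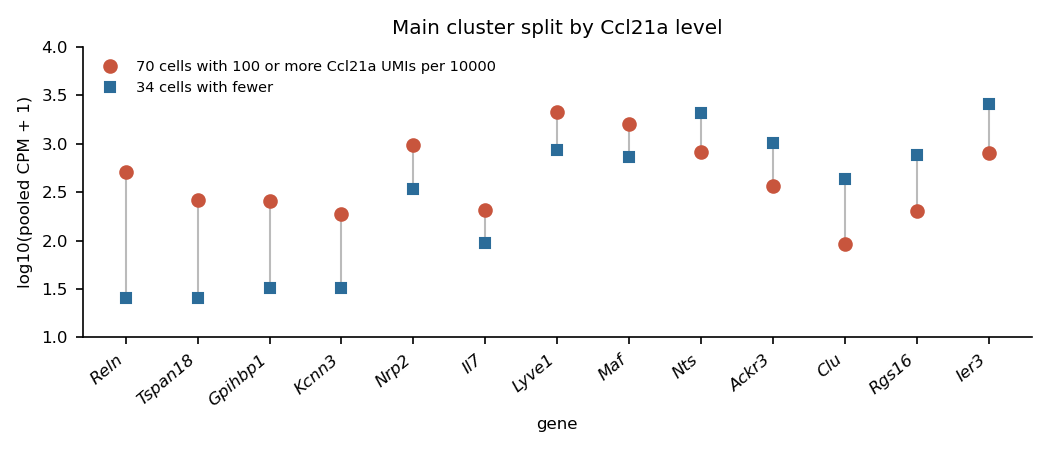
Pooled level, as log10 of CPM plus 1, of 13 genes in the 70 main-group cells with at least 100 Ccl21a UMIs per 10000 (circles) and the 34 with fewer (squares). Reln falls from 515 CPM in the rich to 24.8 in the poor cells, and Ackr3, Clu, Rgs16 and Ier3 lie higher in the poor cells. Nts, a gene of the rule shown as description only, also lies higher there.

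Against all other filtered cells, 1060 of 6330 tested genes were 2-fold higher (16.7%), 940 of them (14.8%) also higher in each of libraries 3, 4 and 5, and 694 (11%) were lower, 667 (10.5%) also lower in each. The median log2 ratio was 0.21. The 122 cells held 82.4% of all Ccl21a UMIs of the filtered cells, 81.3% of those of the oxidase Duox2 (39 UMIs in these cells), 74.0% of Reln, 70.1% of Gm21541, 67.7% of Adgrg3, 61.1% of Sh3gl3, 54.5% of Klhl4, 52.0% of Lyve1 and 45.2% of Htr2b. Genes of smooth muscle and fibroblasts lay at the other end, and Itga8, Ramp1, Abca8a and Actg2 were at 0, with 464, 214, 204 and 181 CPM in all other cells.

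The tracer gave GFP transcripts in 16 lymphatic-type cells. They were 4 of 25 cells in library 3 (16.0%, interval 4.54 to 36.1%) and 12 of 73 in library 4 (16.4%, interval 8.79 to 27.0%), with none of 3 in library 1, none of 8 in library 2 and none of 13 in library 5. Other endothelium held GFP in 2 of 51 cells of library 3 and 1 of 128 of library 4, and leukocyte-gated cells, which show the level of free RNA, in 1 of 79 and 0 of 92. In the same libraries, smooth muscle-gated cells held it in 3.87% and 5.10% and fibroblast-gated cells in 1.88% and 2.68%, although these were deeper (medians of 6892.5 and 6351.5, and 6316 and 5375 UMIs) than the lymphatic-type cells (4984 and 3572). After thinning to 3000 UMIs, 2 of 21 lymphatic-type cells of library 3 (9.52%) and 6 of 46 of library 4 (13.0%) held GFP. At this depth it was held by 1 of 31 and 0 of 76 other endothelial cells. The shares were 1.99% and 2.05% in smooth muscle-gated and 0.992% and 1.40% in fibroblast-gated cells.

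Of the 16 cells, 14 belonged to the main group and 2 to the second. The smooth muscle share with GFP was 9.65% in library 1 and 12.1% in library 2, against 0.0631% in library 5 and 0.504% in library 6. Libraries 1 to 4 thus held GFP above libraries 5 and 6, while the labels list the tracer for 2 of the 6 mice. Which libraries came from those mice was not worked out from these values.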

How the data were processed

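Single-cell suspensions of 6 mice (4 control, 2 LDS) were sequenced by the authors with 10x Genomics 3′ v3 chemistry, and the deposited matrix holds the UMI counts of 31055 features in 30716 barcodes, not normalized. The submitters' processing notes name Cell Ranger 6 and mm10, whereas version 4.0.0 stands in the matrix header. Barcode endings separate 6 libraries that nothing pairs with mice. Cells with 1000 to 5000 genes, 1500 to 25000 UMIs and under 20% mitochondrial UMIs were kept (24972); 152 of their barcodes occurred in more than 1 library.

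Counts were summed over cells and divided by total UMIs (CPM). Log2 ratios added 0.5 UMI to other endothelium and, in proportion to the totals, to the lymphatic-type cells, and a gene with a mean of at least 20 CPM was called at 2-fold. No p-value was computed. A fold against a class at 0 is a lower bound set at 3 UMIs over that class. List medians did not move when genes at 0 were set at that bound, apart from the red cell list, whose median is not given. Clustering of endothelial-gated cells without the genes of the rule used 2000 variable genes, 20 components, 15 neighbours and a Leiden resolution of 0.5 (scanpy 1.11.5, leidenalg 0.10.2, anndata 0.12.19, numpy 2.4.6, scipy 1.17.1, pandas 2.3.3, Python 3.11.15; plots with matplotlib 3.10.9). The doublet caller Scrublet, run within scanpy, marked under 0.5% of cells in libraries 3, 4 and 5, so no cell was removed and the highest 5% of scores per library were left out as an alternative. Cells were thinned to 3000 UMIs (88 lymphatic-type and 185 other endothelial cells were deep enough; 34 and 96 were not). Smooth muscle-gated cells had at least 5 Myh11, and fibroblast-gated cells at least 20 Dcn, transcripts per 10000. The ratio step was tested on simulated data.

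The members and gene lists were chosen with earlier results of these data known. Named were the top 12 and bottom 8 genes by ratio among those with 1 direction in libraries 3, 4 and 5, the top 3 and bottom 2 of each list, all genes of the lymphatic identity and VEGF lists, and the genes of the rule. Others were named after their values were seen. A few genes that these rules name are not reported here. Coordinates come from GENCODE M21 (mm10) and promoters from RefSeq.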

Additional observations from a re-analysis of the deposited data

How the results depend on the processing

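No paired analysis was possible because the barcode endings that separate the libraries carry neither the mouse nor the replicate numbers of the labels. Over 20 other settings, 1781 of 1788 log2 ratios of the 92 named genes called in the comparison with other endothelium kept their sign, and 87 of the 92 genes had no reversed value. Part of this count was fixed in advance. The limit of 50 CPM, the filter of 1 UMI and the call at 4-fold leave each log2 ratio unchanged. Leaving out library 6 removed 0 lymphatic-type cells. Against other endothelium, 274 genes were higher and 251 lower with a mean of at least 50 CPM, 2270 and 3382 with no filter beyond 1 UMI, and 189 and 193 with a call at 4-fold, each limit changing the number of genes by its construction. The share of lymphatic-type cells was 0.376% with at least 3 of the 5 genes, 0.721% with at least 1 and 0.336% when cells were thinned before the rule was applied. It ranged from 0.264 to 0.563% when each library was left out, the lowest without library 4. The share of members in the main cluster, 85.2%, was 94.7% with at least 3 of the 5 genes and 69.4 to 90.7% when each library was left out, the lowest again without library 4. The Vegfd level of fibroblast-gated cells, 76.9 CPM, ranged from 70.3 to 81.1.

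Genes higher than in other endothelium numbered 556 to 615 and genes lower 493 to 571 when each library was left out. With the other endothelium broadened to 475 cells, by asking for 1 and not 2 of Pecam1, Cdh5 and Egfl7 and by admitting cells with 1 of the 5 genes, the log2 ratio turned to -0.44 for Gata6, -0.61 for Ltbp1, -1.04 for Cd74 and -0.42 for Serping1. Without any Myh11 UMI and with at most 2 Dcn UMIs, that of Vcam1 was -1.31. In the main cluster alone, it was -3.15 for Vcam1 and -0.18 for Gata6. The median of the valve and endocardial list turned to -1.91 with a mean of at least 50 CPM, -0.96 under the stricter Myh11 and Dcn limits, -0.10 after thinning and -0.18 in the main cluster alone; the cause was not tested. Settings added after seeing the data left out the 15 other endothelial cells of the Rgs5 cluster, or took Ccl21a out of the totals, with 613 genes then higher and 474 lower. The number of cells limits the shares of libraries 1, 2, 3 and 5, which rest on 3, 8, 25 and 13 cells.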
